A study of Mus musculus with 12 samples.

Results

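The machinery that carries newly made proteins from the endoplasmic reticulum (ER) to the Golgi and returns escaped ER residents was followed in left ventricles of mice after myocardial infarction (MI) or sham surgery. Its members were every gene whose symbol starts with Sec13, Sec16, Sec22, Sec23, Sec24, Sec31, Sec61, Sec62, Sec63, Sar1, Tmed, Kdelr, Lman or Mia3, together with Copa, Copb1, Copb2, Cope, Copg1, Copg2, Copz1, Copz2 and Ssr1 to Ssr4. The rule found 53 of the 17471 genes in the files. By role they were 6 translocon genes, 4 of the translocon-associated protein (TRAP) complex, 2 COPII GTPases, 10 COPII coat or coat-binding genes, 3 scaffolds of ER exit sites, 10 p24 cargo receptors, 4 lectin cargo receptors, 3 KDEL receptors, 8 COPI coat genes and 3 SNAREs. Of these, 52 had enough reads to be tested. Tmed6, a p24 family gene, had 1 read in each of 2 Cre-negative MI libraries and none in the other 10.

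A protein with a signal peptide enters the ER through the Sec61 channel, with the TRAP complex beside it. COPII vesicles, built when the GTPase SAR1 recruits the SEC23-SEC24 inner coat and the SEC13-SEC31 outer coat, carry it towards the Golgi. COPI vesicles run the other way, and KDEL receptors load them with ER chaperones that have leaked out. In an infarct this route is known for carrying collagen and other matrix proteins, whose large precursors need TANGO1 (the product of Mia3) to be packed.

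All mice were siblings with floxed Yap alleles, aged 6 to 10 weeks, that ate tamoxifen diet from surgery until their left ventricles were taken 4 days later. Cre-positive mice had a MerCreMer gene, an inducible Cre recombinase, at the endogenous Postn locus, and Cre-negative mice had the wild-type locus. MI was permanent ligation of the left anterior descending artery. Each of the 4 combinations of genotype and surgery had 3 libraries, 12 in all. The labels number the libraries and do not say how many animals each holds, so p-values measure the spread between these libraries. Cre is driven by Postn, a gene of activated fibroblasts, while RNA came from the whole ventricle, so a change in those cells is diluted. In such bulk RNA, fewer cells of a type and less RNA per cell cannot be told apart.

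Library totals ranged from 10257675 to 15176286 expected counts, so that 3 counts stood for 0.198 to 0.292 CPM, the unit in which counts are scaled to a common library size. Yap1, the floxed gene, differed little with genotype after MI (log2 fold change 0.02 ± 0.09 SE, edgeR quasi-likelihood test, Benjamini-Hochberg adjusted p = 0.971), and the deposited values do not separate its exons. Postn was at 3.76 to 11.4 CPM in Cre-positive sham hearts and at 62.7 to 111 CPM in Cre-negative sham hearts. Y-linked genes summed to at least 10 CPM in 2 of 3 Cre-negative sham and 3 of 3 Cre-negative MI libraries. In Cre-positive hearts they did so in 0 of 3 sham and 1 of 3 MI libraries, so genotype and sex were partly joined. Cre-positive sham replicate 2 stood apart among the members: their summed level was 4385 CPM there, against 3995 and 4042 CPM in the other Cre-positive sham libraries.

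The letters before some members' transcription starts are shown first, and their part in the members' changes was not tested. RefSeq promoters (GRCm38.p6) were found for 47 of the 53 members, and the 250 bases before each start were searched on both strands for 3 elements known to bind factors of the unfolded protein response. The ER stress element ERSE (CCAAT, then 9 bases of any kind, then CCACG) and ERSE-II (ATTGG, any base, then CCACG) were in none of the 51 member promoters, and in 0.113% and 0.0304% of all 32851 promoters. The unfolded protein response element UPRE (TGACGTGG), an XBP1 and ATF6 motif that overlaps neither of the others here, was in 4 of 51 member promoters, 7.84%, against 0.563% of all promoters. Its carriers were Kdelr3, Copb1, Sec24d and Sec16b. Each line below runs 5′ to 3′ along the gene's own strand, with the UPRE in capitals as it reads on that strand. The windows are chr15:79516158-79516407 (plus strand) for Kdelr3 and chr7:114254681-114254930 (minus strand) for Copb1. For the other two, 30 bases around the element are printed, from chr3:123267246-123267495 (plus strand) for Sec24d and chr1:157506546-157506795 (plus strand) for Sec16b.
Kdelr3: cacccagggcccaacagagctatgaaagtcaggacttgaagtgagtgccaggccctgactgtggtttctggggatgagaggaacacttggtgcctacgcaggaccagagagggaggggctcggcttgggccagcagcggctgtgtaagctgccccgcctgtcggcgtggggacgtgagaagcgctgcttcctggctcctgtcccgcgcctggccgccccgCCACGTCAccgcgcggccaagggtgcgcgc
Copb1: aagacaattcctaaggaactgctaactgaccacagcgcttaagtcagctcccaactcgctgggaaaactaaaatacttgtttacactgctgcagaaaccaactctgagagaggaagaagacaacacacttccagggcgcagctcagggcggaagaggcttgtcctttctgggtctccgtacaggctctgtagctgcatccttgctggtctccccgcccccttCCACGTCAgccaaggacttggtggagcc
Sec24d: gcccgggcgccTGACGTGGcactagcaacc
Sec16b: ttctgtgtggcTGACGTGGcacggcagttt
In Kdelr3 the element lay 30 to 23 bases before the start and in Copb1 28 to 21 bases before it, on the opposite strand in both. In Sec24d it lay 26 to 19 and in Sec16b 44 to 37 bases before the start, on the gene's own strand. Distances are from the start in the promoter table, which lists 2 starts for Sec16b and 1 for each other carrier. The RefSeq gene ranges begin earlier for Sec24d (chromosome 3, base 123264801) and Sec16b (chromosome 1, base 157506733), so both elements lie inside those ranges and can be in transcribed sequence. In Kdelr3 and Copb1 the window ends where the gene range begins.

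In Cre-negative hearts the KDEL receptor Kdelr3, the channel subunits Sec61b and Sec61a1 and the exit site scaffold Sec16b were 5.78-, 5.10-, 3.01- and 3.07-fold higher after MI than after sham. Of the 52 tested members, 22 were higher and 6 lower after MI than after sham at an adjusted p under 0.05 (edgeR). Among the 52, 9 were called with a rise of at least 2-fold. This share was like that of all genes, 2358 of 13678 (17.2%). Over all 13678 genes tested, 54.3% were called, 29.9% higher and 24.4% lower. The members' share called, 53.8%, was near that background, with 42.3% of members higher and 11.5% lower. Their median log2 fold change was 0.20, against 0.02 over all genes. The members' summed level was 3911 ± 90.0 CPM (SD, n = 3) after sham and 4711 ± 110 CPM after MI in these hearts.

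In Cre-positive hearts 18 members were higher and 5 lower after MI, beside 45.2% of all genes called, 25.7% higher and 19.5% lower. Of the members, 34.6% were higher and 9.62% lower, and the median log2 fold change was 0.08. Summed over members, the level was 4141 ± 213 CPM (SD, n = 3) after sham and 4466 ± 73.2 CPM after MI. All 18 that rose were among the 22 of the Cre-negative hearts, 81.8% of those. Copz2, Kdelr1, Sec13 and Sec61g passed the test only in Cre-negative hearts, which does not show that the genotypes differ. Of the falls, 4 were shared, 66.7% of the Cre-negative and 80.0% of the Cre-positive ones. The overlap of calls over all genes was not counted, so neither overlap can be read as a trait of the members. Without Cre-positive sham replicate 2, the count in Cre-positive hearts was 20 higher and 7 lower and the median 0.13. The share of all genes called in that fit was not counted, so the larger count is not a result about the members. That median was 0.05 with the other size factors (RLE) or with DESeq2, and 0.06 without Cre-positive sham replicate 3.

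**Figure D1:**
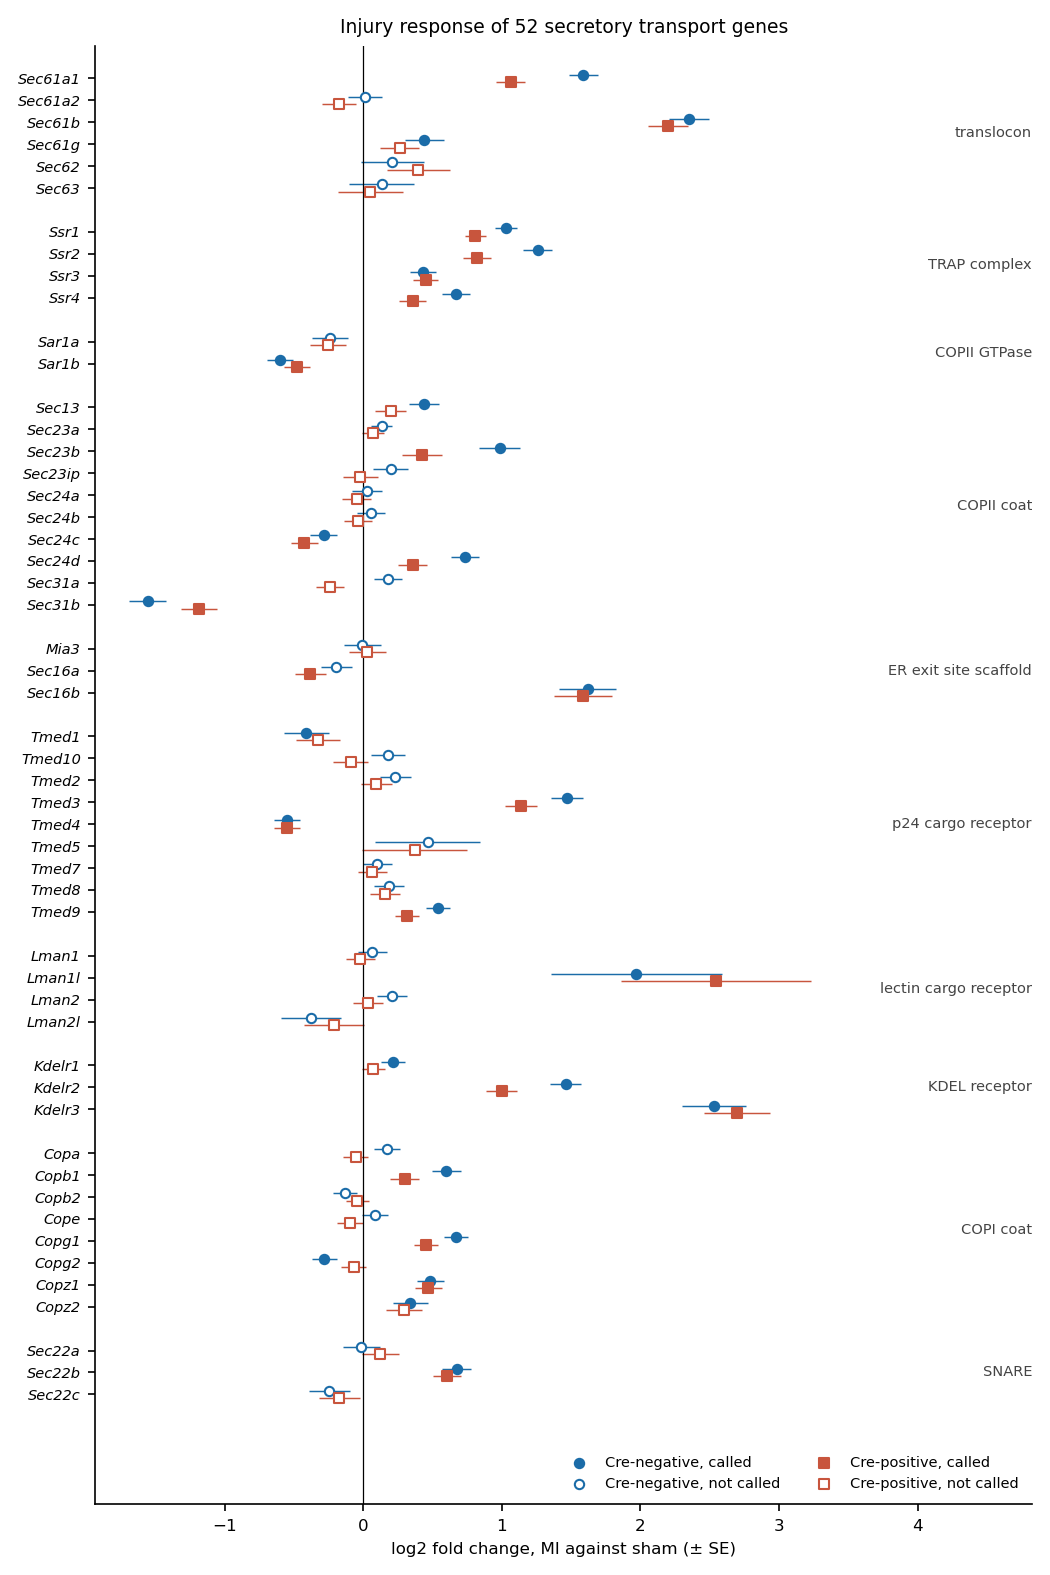
Log2 fold change (MI against sham, ± SE) of the 52 tested members, ordered by role, in Cre-negative and Cre-positive hearts (3 libraries per group); filled marks passed an adjusted p of 0.05. Kdelr3, Sec61b and Lman1l lie farthest to the right and Sec31b farthest to the left in both genotypes. Lman1l had few reads and passed the filter only through its MI libraries.

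At the translocon, Sec61b, the small beta subunit of the channel (gene 66212, chr4:47474661-47483233, mm10), rose the most. It stood at 6.68, 8.38 and 8.18 CPM in Cre-negative sham and at 42.0, 36.8 and 39.6 CPM in Cre-negative MI libraries. In Cre-positive hearts it was at 7.72, 5.68 and 5.88 CPM after sham and 28.4, 27.4 and 33.0 CPM after MI. Every MI library was above every sham library, with log2 fold changes of 2.35 ± 0.14 (adjusted p = 1.92e-07) and 2.197 ± 0.14 (adjusted p = 5.18e-07). Sec61a1, which forms the channel itself (gene 53421, chr6:88503607-88518800), went from 42.9, 42.2 and 42.8 to 133, 118 and 133 CPM in Cre-negative hearts. The Cre-positive values went from 56.4, 47.0 and 42.1 to 101, 97.9 and 105 CPM. MI and sham libraries did not overlap, and the log2 fold changes were 1.59 ± 0.11 (adjusted p = 3.77e-07) and 1.06 ± 0.11 (adjusted p = 8.80e-06).

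The third channel subunit, Sec61g, changed by 0.44 ± 0.14 on the log2 scale in Cre-negative hearts (adjusted p = 0.0202) and by 0.26 ± 0.14 in Cre-positive hearts (adjusted p = 0.152). The Cre-negative call was lost without sham replicate 1 (adjusted p = 0.0827) or MI replicate 1 (0.0942). The alternative channel gene Sec61a2 was at 0.01 ± 0.12 and -0.18 ± 0.12, and neither value passed. Sec62 and Sec63, which aid entry after translation, did not pass in either genotype. Both varied widely among Cre-positive sham libraries, Sec62 at 57.3, 137 and 85.5 CPM and Sec63 at 49.5, 119 and 71.1 CPM, with replicate 2 the highest.

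All 4 TRAP genes rose in both genotypes. Ssr2, the TRAP beta subunit, went from 44.5, 54.1 and 54.0 to 128, 114 and 122 CPM in Cre-negative hearts, and from 58.8, 52.6 and 54.5 to 93.9, 93.0 and 106 CPM in Cre-positive hearts. Its log2 fold changes were 1.26 ± 0.10 and 0.82 ± 0.10. Ssr1 rose by 1.03 ± 0.08 and 0.81 ± 0.08, Ssr3 by 0.43 ± 0.09 and 0.45 ± 0.09, and Ssr4 by 0.67 ± 0.10 and 0.36 ± 0.10. The summed level of the complex was 399 to 407 CPM in Cre-negative sham and 618 to 689 CPM in Cre-negative MI libraries, so the groups did not overlap.

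COPII genes moved in both directions. Sec31b, the less abundant outer coat paralog (gene 240667, chr19:44516957-44545848), had the largest fall. It was at 24.2, 27.4 and 26.1 CPM in Cre-negative sham and 7.94, 8.99 and 9.53 CPM in Cre-negative MI libraries. The Cre-positive values went from 25.8, 34.5 and 26.9 to 12.1, 12.9 and 13.5 CPM. The log2 fold changes were -1.55 ± 0.13 (adjusted p = 1.77e-06) and -1.18 ± 0.13 (adjusted p = 1.77e-05), with no overlap between sham and MI. Its paralog Sec31a was at 0.18 ± 0.10 and -0.24 ± 0.10, neither called.

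Of the GTPases that start the coat, Sar1b fell. It went from 109.8, 111 and 117 to 67.3, 79.1 and 76.0 CPM in Cre-negative hearts and from 106, 113 and 120.0 to 78.9, 87.7 and 76.7 CPM in Cre-positive hearts. These were log2 fold changes of -0.60 ± 0.09 and -0.48 ± 0.09, again without overlap. Sar1a was at -0.24 ± 0.13 and -0.25 ± 0.13, neither called.

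In the inner coat, cargo-binding Sec24d rose and Sec24c fell. Sec24d went from 58.1, 53.9 and 51.5 to 90.0, 90.3 and 91.6 CPM in Cre-negative hearts, and from 67.8, 52.9 and 62.9 to 84.1, 78.8 and 72.3 CPM in Cre-positive hearts. Its log2 fold changes were 0.73 ± 0.10 (adjusted p = 8.10e-05) and 0.36 ± 0.10 (adjusted p = 0.0135). The Cre-positive call was lost without Cre-positive sham replicate 2 (adjusted p = 0.0668), without Cre-positive MI replicate 1 (0.0591) or with only those 2 groups fitted (0.0681). Sec24c went from 128, 109 and 119 to 86.9, 105 and 101 CPM in Cre-negative hearts and from 132, 127 and 117 to 93.4, 92.7 and 94.2 CPM in Cre-positive hearts. Its log2 fold changes were -0.29 ± 0.10 (adjusted p = 0.0244) and -0.42 ± 0.10 (adjusted p = 0.00348). The Cre-negative call was lost without sham replicate 1 (adjusted p = 0.0866), sham replicate 3 (0.0571) or MI replicate 1 (0.1001).

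Sec23b, an inner coat GTPase activator, rose by 0.98 ± 0.15 and 0.42 ± 0.15 on the log2 scale. Its Cre-positive call (adjusted p = 0.0318) was lost with Y-linked reads as a term (0.0632). It was also lost without Cre-positive sham replicate 1 (0.0558) or 3 (0.113), and without Cre-positive MI replicate 1 (0.108) or 3 (0.0836). Sec13, of the outer coat, rose by 0.44 ± 0.11 in Cre-negative hearts and was at 0.20 ± 0.11 in Cre-positive hearts. Sec23a, Sec23ip, Sec24a and Sec24b did not pass in either genotype.

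The scaffolds of ER exit sites behaved differently from one another. Sec16b (gene 89867, chr1:157506733-157568425) rose from 4.42, 5.19 and 3.74 to 16.2, 11.3 and 13.5 CPM in Cre-negative hearts. The Cre-positive values rose from 4.02, 2.56 and 4.33 to 10.1, 11.8 and 10.9 CPM. The log2 fold changes were 1.62 ± 0.20 (adjusted p = 3.59e-05) and 1.59 ± 0.21 (adjusted p = 7.85e-05), and sham and MI libraries did not overlap. Sec16a, the main scaffold, was at 94.9, 81.4 and 79.4 CPM after sham and 68.1, 78.9 and 76.4 CPM after MI in Cre-negative hearts, where it did not pass (-0.19 ± 0.11, adjusted p = 0.153). In Cre-positive hearts it went from 94.9, 105 and 80.6 to 71.3, 73.0 and 70.7 CPM and passed (-0.38 ± 0.11, adjusted p = 0.0135). Mia3, whose product TANGO1 packs collagen precursors, was at -0.01 ± 0.13 and 0.03 ± 0.13.

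Among p24 cargo receptors, Tmed3 rose most, from 25.7, 24.8 and 25.4 to 75.0, 64.3 and 70.9 CPM in Cre-negative hearts and from 30.4, 22.5 and 23.7 to 52.6, 57.4 and 58.7 CPM in Cre-positive hearts. Its log2 fold changes were 1.47 ± 0.12 and 1.14 ± 0.12, without overlap of the groups. Tmed9 rose by 0.54 ± 0.09 and 0.31 ± 0.09, the latter call being lost with only the 2 Cre-positive groups fitted (adjusted p = 0.0610). Tmed4 fell, from 97.8, 88.1 and 99.5 to 62.3, 67.1 and 65.3 CPM and from 118, 98.0 and 107 to 70.5, 78.3 and 71.6 CPM. Both log2 fold changes were -0.55 ± 0.09.

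Tmed1 went from 34.1, 31.3 and 34.9 to 23.8, 23.4 and 28.3 CPM in Cre-negative hearts (-0.41 ± 0.16, adjusted p = 0.0472). In Cre-positive hearts its sham libraries, at 41.3, 26.8 and 34.8 CPM, overlapped the MI libraries, at 22.8, 31.6 and 27.7 CPM (-0.33 ± 0.16, adjusted p = 0.116). Its Cre-negative call was lost under 10 of 18 alternatives, with adjusted p up to 0.134, and without Cre-negative sham replicate 1 it was 0.102. Tmed2, Tmed5, Tmed7, Tmed8 and Tmed10 did not pass. Tmed5 ranged from 12.5 to 52.1 CPM among Cre-positive sham libraries.

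Lectin cargo receptors bind sugars on passing glycoproteins. Lman1l was called higher on few reads, at 0.470, 0.599 and 0.197 CPM in Cre-negative sham and 0.695, 2.18 and 2.2002 CPM in Cre-negative MI libraries. In Cre-positive hearts it was at 0.241, 0.458 and 0 CPM after sham and 1.69, 1.06 and 1.59 CPM after MI. The log2 fold changes were 1.97 ± 0.61 (adjusted p = 0.0169) and 2.54 ± 0.68 (adjusted p = 0.00932). The Cre-negative call was lost without sham replicate 3 (0.0705), MI replicate 2 (0.0562) or MI replicate 3 (0.0548). Lman1, Lman2 and Lman2l did not pass in either genotype.

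Of the KDEL receptors, which catch ER chaperones in the Golgi, Kdelr3 and Kdelr2 rose in both genotypes. Kdelr3 (gene 105785, chr15:79516408-79527739) went from 7.15, 8.28 and 8.08 to 48.0, 41.0 and 47.0 CPM in Cre-negative hearts and from 8.12, 3.30 and 4.12 to 34.3, 34.3 and 33.6 CPM in Cre-positive hearts. The MI libraries all lay above the sham libraries, with log2 fold changes of 2.53 ± 0.23 (adjusted p = 2.72e-06) and 2.69 ± 0.24 (adjusted p = 3.24e-06). Kdelr2 (gene 66913, chr5:143403820-143421904) went from 32.0, 34.8 and 37.6 to 95.6, 92.1 and 99.7 CPM and from 40.7, 33.1 and 34.1 to 67.8, 67.9 and 79.9 CPM. Its log2 fold changes were 1.46 ± 0.11 and 0.998 ± 0.11. Kdelr1, the most abundant of them, was at 0.22 ± 0.08 in Cre-negative hearts (adjusted p = 0.0483) and 0.07 ± 0.08 in Cre-positive hearts (adjusted p = 0.513). The former call was lost under 15 of 18 alternatives, with adjusted p up to 0.242, and without Cre-negative sham replicate 1 it was 0.170.

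**Figure D2:**
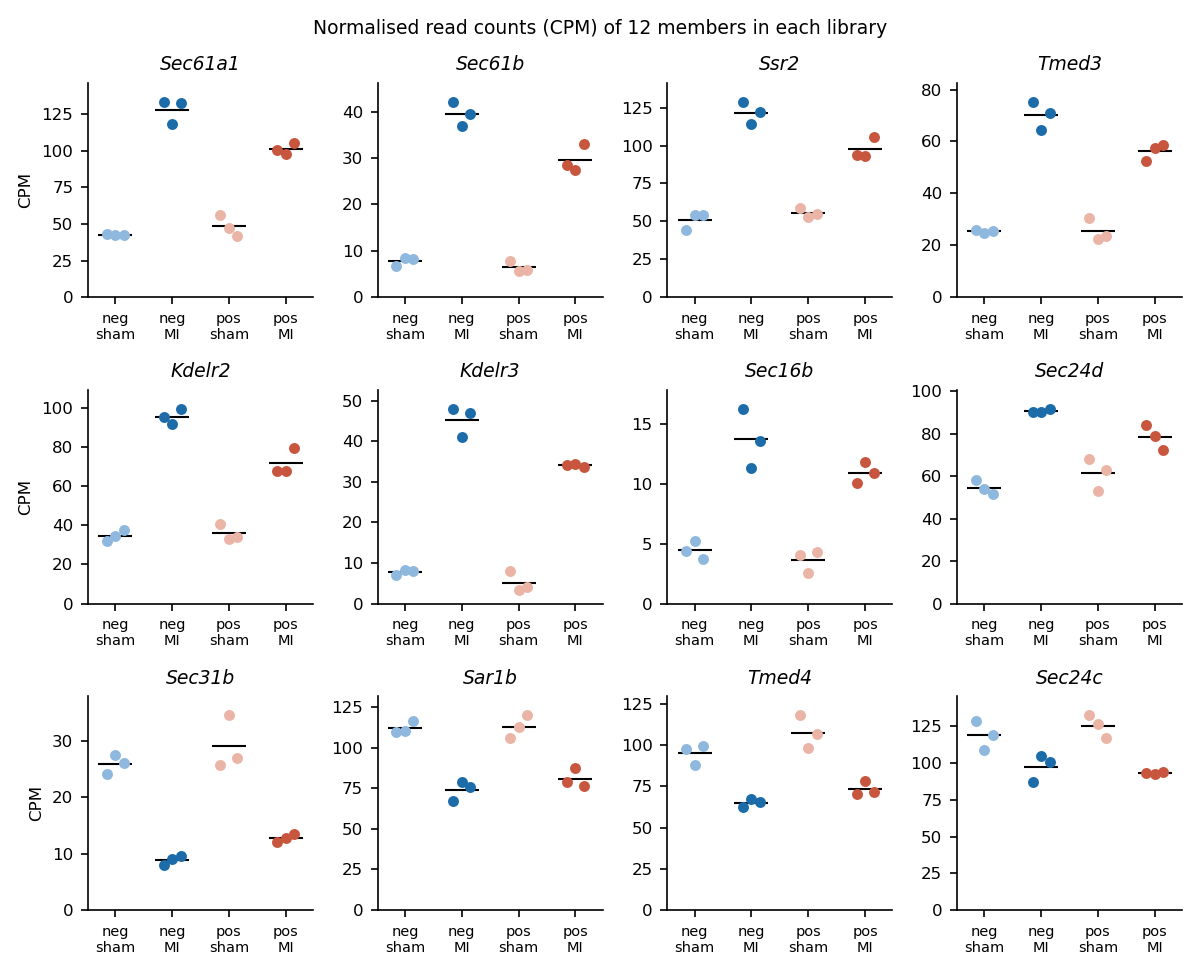
TMM-scaled CPM (linear axis from 0) of members of different roles in each of the 12 libraries, by group; each point is 1 library, the bar is the group mean, and neg and pos stand for Cre-negative and Cre-positive. Sec61b, Kdelr3 and Sec16b are low in all sham libraries and high in all MI libraries, and Sec31b shows the opposite order.

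Every change in the COPI coat was below 2-fold. Copg1, a gamma subunit, rose by 0.67 ± 0.09 and 0.45 ± 0.09, and Copz1, a zeta subunit, by 0.48 ± 0.09 and 0.47 ± 0.09 on the log2 scale. Copb1, a beta subunit, rose by 0.60 ± 0.10 in Cre-negative hearts and by 0.30 ± 0.10 in Cre-positive hearts. Its Cre-positive call (adjusted p = 0.0344) was lost under 8 of 18 alternatives, with adjusted p up to 0.110, reached without Cre-positive sham replicate 1. Copz2 passed in Cre-negative hearts (0.34 ± 0.13, adjusted p = 0.0399) and lost this under 10 of 18 alternatives, being at 0.138 without Cre-negative sham replicate 1. Copg2, the second gamma subunit, was at -0.28 ± 0.09 in Cre-negative hearts (adjusted p = 0.0205), lost without sham replicate 1 (0.0660) or MI replicate 1 (0.0824). Copa, Copb2 and Cope did not pass. Of the SNAREs, Sec22b, which fuses vesicles between ER and Golgi, rose by 0.67 ± 0.10 and 0.60 ± 0.10, and Sec22a and Sec22c did not pass.

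All 4 members with a UPRE (Kdelr3, Copb1, Sec24d and Sec16b) were called higher in both genotypes. In Cre-positive hearts the calls of Copb1 and Sec24d were lost under 8 and 3 of 18 alternatives. Of the 42 tested members with a matched promoter and no UPRE, 15 (35.7%) were higher in Cre-negative and 11 in Cre-positive hearts. Members without a matched promoter are left out of this count. Of them, Sec61a1, Kdelr2 and Ssr2 were called higher in both genotypes and Lman1, Tmed2 and Tmed7 in neither. Over all genes with a promoter, 35.4% of the 99 with a UPRE and 29.4% of the 10801 without one were higher in Cre-negative hearts. Those 99 genes had a median log2 fold change of -0.01, and those without it 0.02. In Cre-positive hearts 30.3% of those with and 25.3% of those without it were higher, with medians of -0.04 and 0.00, and the 11 of 42 members (26.2%) were near that share.

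Levels per length were compared in FPKM, the authors' depth- and length-scaled unit. In Cre-negative sham hearts Tmed2 was the highest member at 112 ± 3.53 FPKM (SD, n = 3), followed by Kdelr1 at 95.5 ± 9.38, Cope at 91.0 ± 4.98 and Sar1b at 85.0 ± 4.01 FPKM. Kdelr1 and Cope, and Cope and Sar1b, differed by less than the sum of their SDs. The channel subunits were at 34.1 ± 3.40 (Sec61g), 13.9 ± 2.09 (Sec61b) and 13.1 ± 0.386 FPKM (Sec61a1). After MI in the same genotype they were at 54.9 ± 9.01, 83.6 ± 6.65 and 46.6 ± 3.27 FPKM. Sec61b thus moved from rank 29 to rank 7 of the members, Kdelr3 from 45 to 23 and Ssr2 from 14 to 3, while Tmed2 and Kdelr1 stayed at ranks 1 and 2. FPKM is not TMM-scaled, so ranks within a group and shares within a family are used here and not fold changes.

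Within families of paralogs the makeup of the family's summed FPKM changed after MI. Of 19 shares tested, 16 differed between MI and sham at an adjusted p under 0.05 (exact two-sided permutation test within genotype, 400 regroupings, smallest possible p = 0.005). Shares in a family add up to the whole, so those within the Kdelr, Sec24 and Sec22 families are not independent. Paralog families outside the members were not tested, so this count has no background to be read against. The KDEL receptors shifted furthest. Kdelr1 held 81.9, 81.6 and 78.7% of the family in Cre-negative sham and 57.4, 60.4 and 57.9% in Cre-negative MI libraries. Its Cre-positive shares were 80.8, 83.5 and 83.5% after sham and 66.0, 64.6 and 62.9% after MI (adjusted p = 0.00731, exact permutation test). Kdelr2 went from 14.8% ± 1.5 (SD, n = 3) to 25.4% ± 0.50 and from 14.6% ± 0.48 to 21.8% ± 1.8. Kdelr3 went from 4.43% ± 0.29 to 16.0% ± 1.2 and from 2.75% ± 1.1 to 13.7% ± 0.47.

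Sec16a lost share to Sec16b, holding 91.6, 89.0 and 91.7% of the pair in Cre-negative sham and 67.8, 77.9 and 73.9% in Cre-negative MI libraries. Its Cre-positive shares were 92.2, 95.5 and 90.5% and then 77.8, 75.9 and 76.6%. Sec61a1 took 70.0% ± 2.0 of the channel pair after sham and 87.2% ± 1.4 after MI in Cre-negative hearts, and 73.4% ± 5.2 and 86.7% ± 0.68 in Cre-positive hearts. Sec31a took 88.3% ± 1.5 and 96.2% ± 0.38, then 89.0% ± 0.82 and 94.0% ± 0.47. MI and sham shares did not overlap in these families.

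In the cargo-binding Sec24 family, Sec24c was the leading paralog after sham at 49.1% ± 1.7 in Cre-negative hearts and fell to 36.9% ± 2.5 after MI, while Sec24d went from 25.4% ± 0.99 to 38.9% ± 1.0. In Cre-positive hearts Sec24c went from 48.9% ± 0.94 to 38.6% ± 1.5 and Sec24d from 27.0% ± 3.1 to 36.5% ± 1.8. Sec24a (adjusted p = 0.676) and Sec24b (adjusted p = 0.840) had changes in share that did not pass the exact permutation test. Sec23a went from 75.1% ± 2.8 to 62.6% ± 4.4 of its pair, and from 70.5% ± 2.7 to 65.1% ± 2.3. Copg1 went from 60.0% ± 0.83 to 74.6% ± 2.0 and from 60.1% ± 1.6 to 68.2% ± 1.1, and Sec22b from 68.5% ± 1.1 to 78.9% ± 0.28 and from 67.8% ± 1.7 to 76.2% ± 1.2. Copz1 missed the threshold (adjusted p = 0.0503, exact permutation test).

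**Figure D3:**
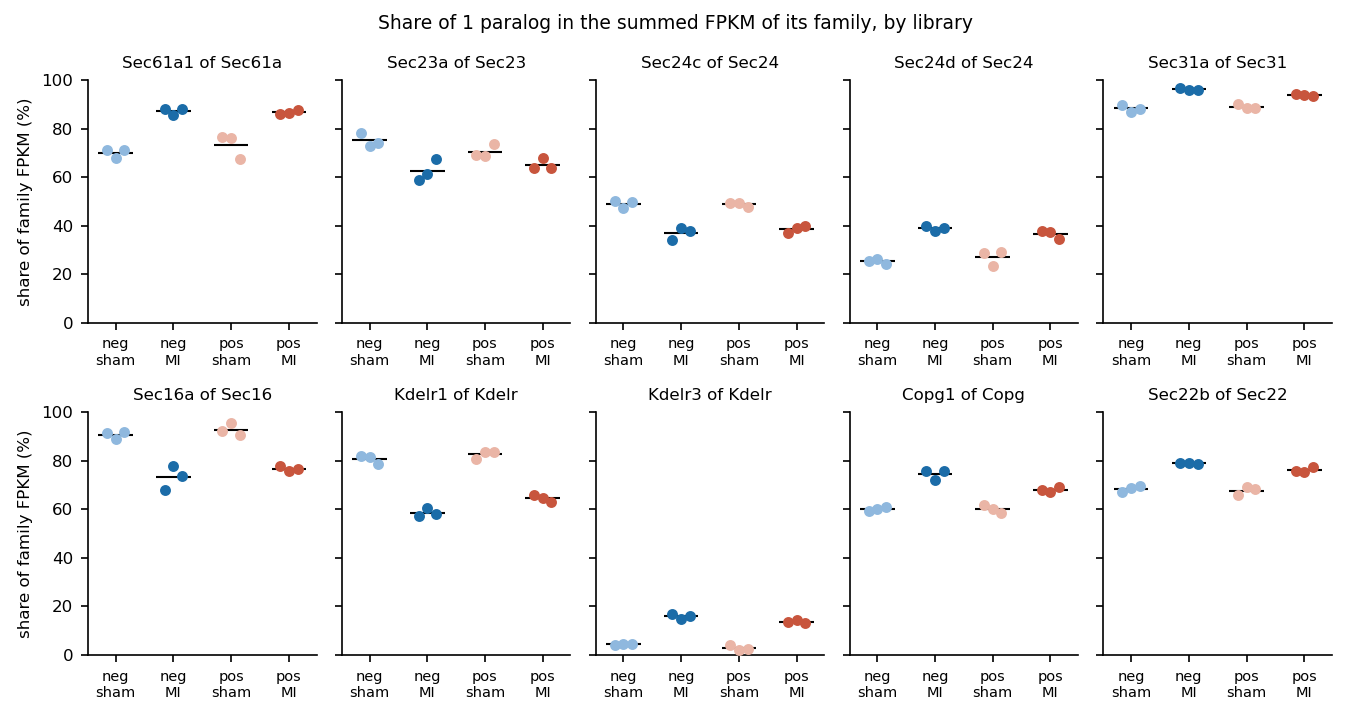
Share (percent, axis 0 to 100) of 1 paralog in the summed FPKM of its family, for each of the 12 libraries by group; points are libraries, bars are group means, and neg and pos stand for Cre-negative and Cre-positive. Kdelr1 and Sec16a shares are lower in every MI library than in every sham library, and Sec61a1 and Sec31a shares are higher.

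Neighbouring steps of the route were described from lists of genes outside the rule, to be read beside the 29.9% and 25.7% of all genes called higher and the 24.4% and 19.5% called lower in Cre-negative and Cre-positive hearts. In Cre-negative and Cre-positive hearts in turn, signal peptide targeting and cleavage had 6 and 5 of 17 genes higher and 0 and 1 lower, with medians of 0.20 and 0.12 on the log2 scale. Those higher were 35.3% and 29.4% of the list, near the share of all genes. Tram1, which sits beside the channel, rose by 0.91 ± 0.08 and 0.70 ± 0.08, and Spcs3, of the signal peptidase, by 0.92 ± 0.09 and 0.83 ± 0.09. Of 12 oligosaccharyltransferase genes, which add sugars at the channel, 7 and 5 were higher and 1 and 1 lower, with medians of 0.37 and 0.21. Stt3a, a catalytic subunit, rose by 1.34 ± 0.11 and 0.93 ± 0.11, and Ddost by 0.83 ± 0.09 and 0.51 ± 0.09.

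COPII regulators and cargo receptors outside the rule had 8 and 5 of 19 tested higher (42.1% and 26.3%, the second near the share of all genes) and 4 and 2 lower. Yipf5 rose by 1.18 ± 0.11 and 0.87 ± 0.11, and the cargo receptor Surf4 by 0.63 ± 0.08 and 0.34 ± 0.08, while Klhl12, a ubiquitin ligase adaptor of SEC31, fell (-0.65 ± 0.11 and -0.42 ± 0.11). The 30 ER-Golgi SNAREs and tethers had 9 and 2 higher and 5 and 6 lower. In Cre-negative hearts the share higher was that of all genes, and in Cre-positive hearts, at 6.67%, it was below it. Gorasp1, a Golgi stacking protein, fell (-0.74 ± 0.11 and -0.61 ± 0.11). Of 10 genes of the COPI coat and Arf cycle outside the rule, 6 and 4 were higher and 2 and 2 lower, with Arf4 rising by 1.04 ± 0.08 and 0.75 ± 0.08.

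Of 8 transcription factors of secretory genes, 6 and 3 were higher and 1 and 1 lower. Those higher include Creb3l3 in both genotypes, on few reads. It was at 0 to 0.376 CPM in sham and 1.49 to 2.47 CPM in MI libraries, so it passed the filter only through the latter. Creb3l1, known to drive secretory genes in collagen-producing cells, went from 12.2, 10.4 and 11.7 to 81.2, 67.5 and 69.8 CPM and from 12.2, 8.98 and 9.07 to 47.5, 46.2 and 54.1 CPM. Its log2 fold changes were 2.67 ± 0.14 and 2.28 ± 0.14, and sham and MI did not overlap. Xbp1, a factor of the UPRE, rose in Cre-negative hearts (0.69 ± 0.12, adjusted p = 0.000461) and was at 0.13 ± 0.12 in Cre-positive hearts (adjusted p = 0.420). This does not show that the genotypes differ, since the difference between the responses was not called (-0.57 ± 0.17, adjusted p = 0.552, edgeR). All 21 genes of secreted matrix cargo rose in both genotypes, with medians of 3.53 and 4.28.

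Markers of several cell types moved with MI. The summed level of 10 fibroblast and myofibroblast markers was 1891 to 2371 CPM in Cre-negative sham and 16558 to 18426 CPM in Cre-negative MI libraries, and 965 to 1496 and 12365 to 13669 CPM in Cre-positive ones. Of these, 9 were called higher in each genotype. All 10 macrophage and monocyte markers were higher, with sums of 327 to 380.0 and 1952 to 2173 CPM in Cre-negative hearts and 112 to 387 and 1478 to 1635 CPM in Cre-positive hearts. Of 10 cardiomyocyte markers, 9 and 7 were lower, with sums of 117987 to 133494 and 48358 to 67186 CPM, and of 78544 to 144792 and 69599 to 84259 CPM. Of 7 B and plasma cell markers, which mark cells rich in this machinery, 4 were higher in each genotype, with sums of 6.78 to 12.2 CPM after sham and 40.3 to 113 CPM after MI. Of 8 endothelial markers, 1 and 0 were higher and 2 and 2 lower, and their sums lay between 996 and 1187 CPM throughout. No marker was at 0 in a whole group, and the part of these cell types in the members' changes was not tested.

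Between genotypes after MI, no member was called, nor was any of the 13678 genes (0%, edgeR). At an unadjusted p under 0.05 there were 2 members higher and 8 lower in Cre-positive hearts, 19.2% of the 52, against 12.6% of all genes (5.69% higher and 6.95% lower). The members' median was -0.07, against -0.01 over all genes. The smallest p-values were those of Sec31b, Kdelr2 and Sec61a1, at log2 fold changes of 0.54 ± 0.13 (adjusted p = 0.224), -0.41 ± 0.11 (adjusted p = 0.238) and -0.34 ± 0.10 (adjusted p = 0.269). As given above, the 3 Cre-positive MI libraries did not overlap the 3 Cre-negative ones in any of these genes. These genes were picked by their p in this comparison, so the lack of overlap is not separate evidence. The other 7 were Ssr1, Sec61b, Ssr2, Tmed3, Copg1 and Sec61a2, all lower, and Copg2, higher (0.24 ± 0.09).

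DESeq2 called Sec31b, Kdelr2 and Ssr1 in this comparison, among 177 of the 11283 genes it tested (1.57%). The authors' deposited table had Sec31b higher (log2 fold change 0.553, adjusted p = 0.0432) and Sec61b, Kdelr2, Sec61a1 and Kdelr3 lower (-0.400, -0.399, -0.324 and -0.398), among 763 of 17182 genes in the authors' deposited table (4.44%). Here too the marker sums given above differed without overlap: fibroblast and macrophage sums were lower and cardiomyocyte sums higher in Cre-positive MI libraries. No single marker of these lists was called (edgeR). The fibroblast markers ranged from -1.35 to 0.16 on the log2 scale, so not every one was lower. The lowest was Postn, whose locus holds the Cre gene in Cre-positive mice. The part of these cell types in the values was not tested. With Y-linked reads as a term, 0 members were called as well.

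Between genotypes after sham, no member was called, beside 0.0512% of all genes (edgeR). At an unadjusted p under 0.05 there were 3 members, against 8.22% of all genes, and DESeq2 called none, beside 0.292% of the genes it tested. They were Copa, the COPI alpha subunit (0.28 ± 0.09, adjusted p = 0.582), Sec31a (0.25 ± 0.10, adjusted p = 0.587) and Kdelr3 (-0.58 ± 0.25, adjusted p = 0.599). Copa was at 248.8, 242 and 221 CPM in Cre-negative and 271, 315 and 276 CPM in Cre-positive sham libraries, with no overlap. Sec31a was at 227, 191 and 205 against 242, 279 and 220.4 CPM, and the groups overlapped. Cre-positive sham replicate 2 was the highest for both and the lowest for Kdelr3. All of these genes were picked by their p, so a lack of overlap is not separate evidence. Without Cre-positive sham replicate 1, Kdelr3 passed as lower (adjusted p = 0.0387). Fibroblast marker sums also differed without overlap here, at 1891 to 2371 CPM in Cre-negative and 965 to 1496 CPM in Cre-positive sham libraries, while macrophage and cardiomyocyte sums overlapped. Of the 10 fibroblast markers, 2 were called lower (edgeR), and the 10 ranged from -4.56 to 0.21 on the log2 scale. They include Postn, whose locus holds the Cre gene in Cre-positive mice. The part of these cells in the members' values was not tested.

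**Figure D4:**
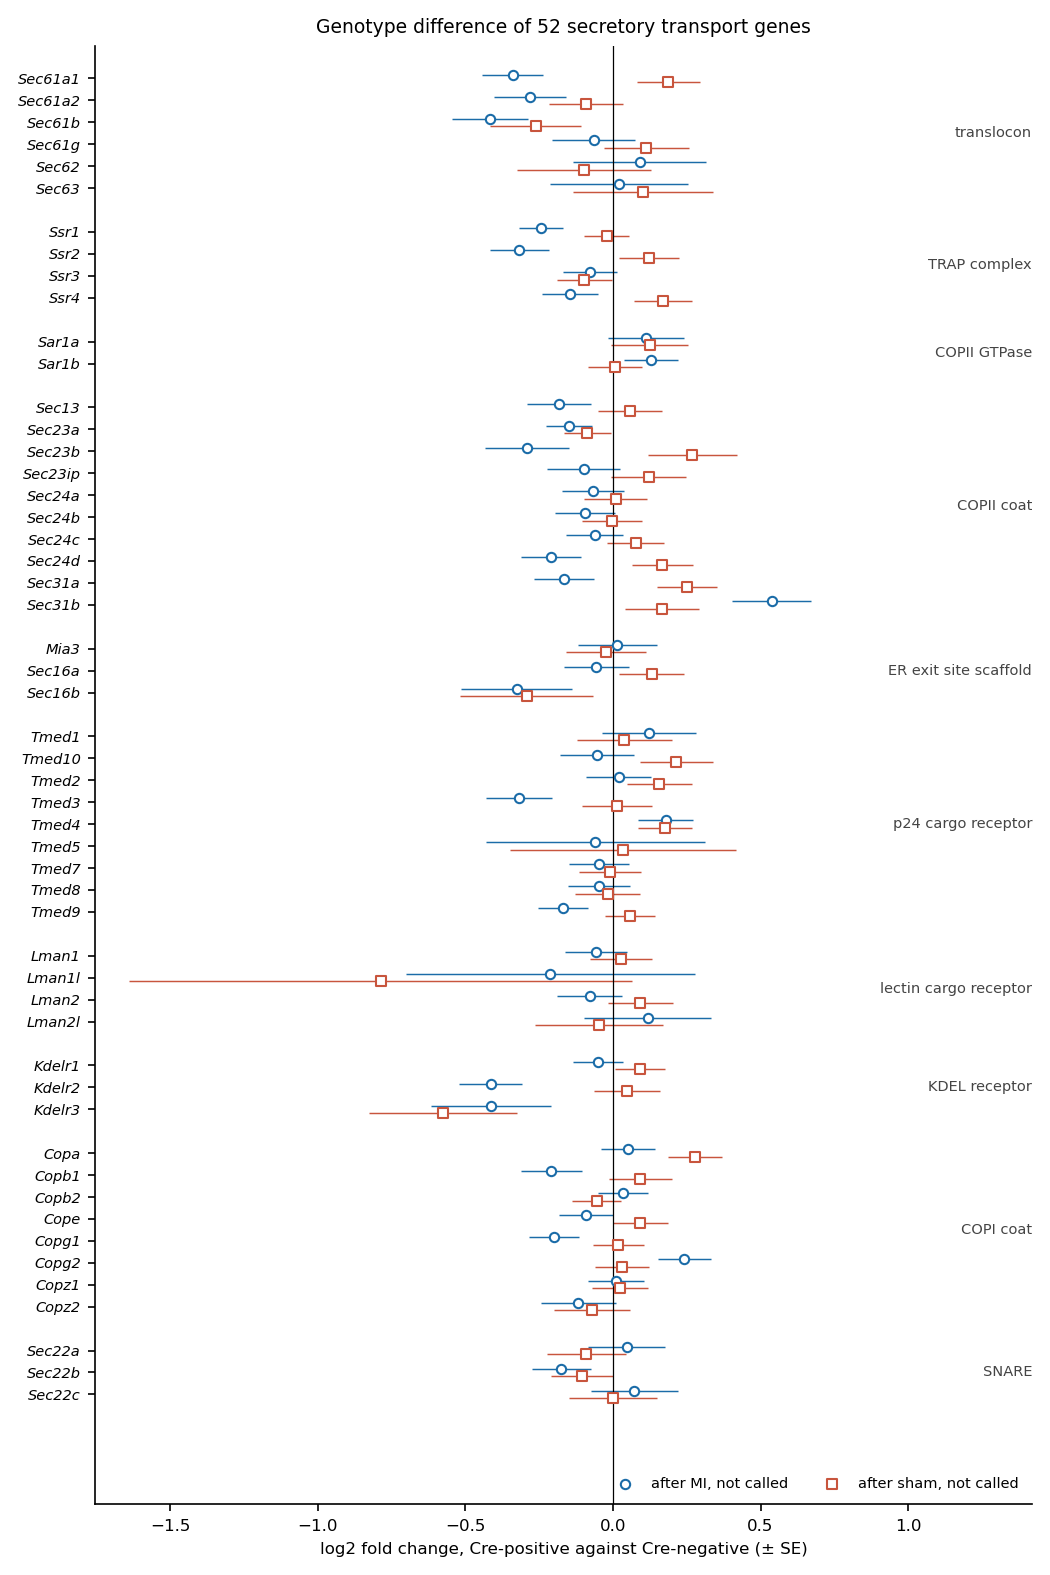
Log2 fold change (Cre-positive against Cre-negative, ± SE) of the 52 tested members, ordered by role, after MI and after sham (3 libraries per group). No member passed an adjusted p of 0.05, and after MI 36 of the 52 values lie below 0.

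Whether the response to MI differed by genotype was tested as an interaction, which was called for no member and for none of all genes (0%, edgeR). At an unadjusted p under 0.05 there were 7 members, all with a smaller rise or a value more to the negative side in Cre-positive hearts, against 8.16% of all genes (3.9% to the negative side). DESeq2 called no member, beside 0.36% of the genes it tested. The smallest p-values were those of Sec61a1 (-0.53 ± 0.15, adjusted p = 0.552), Ssr2 (-0.44 ± 0.14, adjusted p = 0.553) and Kdelr2 (-0.46 ± 0.15, adjusted p = 0.560). The others were Sec31a, Sec23b, Sec24d and Ssr4. These comparisons share libraries with those after MI and after sham, so their values are not separate evidence. On simulated data a change of 2-fold was recovered in 64% and one of 1.5-fold in 18% of the changed genes for the genotype comparison after MI. The changed genes were drawn from all 13678 genes tested, whatever their level. These shares are therefore not those of the members, for which recovery was not estimated. The members' values there lay below 1.5-fold.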

How the data were processed

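Bulk RNA-seq of whole left ventricles was used. Reads were aligned with Bowtie2 2.2.5 and quantified with RSEM 1.2.12 on mm10, per the submitters' processing notes. The authors deposited RSEM expected counts and FPKM per gene and library, and tables of their own DESeq2 log2 fold changes and adjusted p-values (the authors' p-value columns are quoted as theirs). Among expected counts above 0, 74.0% were whole within 0.005.

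Expected counts were rounded, and 13678 genes passed edgeR's filterByExpr (minimum count 10; 3793 removed). One edgeR 4.0.16 quasi-likelihood fit (R 4.3.3, TMM, 1 coefficient per group, 12 libraries) gave 5 contrasts, with Benjamini-Hochberg adjustment over all genes and a threshold of 0.05; the SE is the log2 fold change divided by the root of F. Printed CPM are TMM-scaled. DESeq2 1.42.0 was an alternative, beside other size factors, no filter, only the groups compared and a replicate block. The others were Y-linked reads as a term (at least 10 CPM or not) and leaving out each library. The fit was tested on simulated data. Sums and shares used the same libraries.

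Members and lists were chosen with earlier results of these data known. Values per library are given for the 5 largest called rises and up to 5 falls of each injury contrast, for the 3 smallest p of each genotype contrast, and for described paralogs (as CPM or as shares); from each list, genes among the 4 with the smallest p. Promoters are RefSeq GRCm38.p6; Kdelr2, Ssr2, Lman1, Tmed2, Tmed7 and Sec61a1 had no entry matched.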

Additional observations from a re-analysis of the deposited data

How the results depend on the processing

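Over 18 alternatives, 21 of the 28 calls in Cre-negative and 19 of the 23 in Cre-positive hearts held in every one, and none changed direction. Leaving out 1 library at a time gave 19 to 22 members higher and 3 to 8 lower in Cre-negative hearts, and 15 to 20 higher and 5 to 7 lower in Cre-positive hearts. Shares of all genes called in these fits were not counted. The 3 lower calls came without Cre-negative sham replicate 1 and without Cre-negative MI replicate 1. After MI, DESeq2 called 1 member higher and 2 lower between genotypes, where edgeR called 0. After sham, leaving out 1 library gave 0 to 1 members lower. Of the 19 paralog shares, 15 to 17 passed when 1 library was left out, and 16 with summed CPM in place of FPKM. The changes in share of Sec24a and Sec24b, which did not pass, turned sign. Sec24b, at -0.164 percentage points, was at 0.0921 with summed CPM, and ranged from -0.627 to 0.430 when 1 library was left out, being above 0 without replicate 2 of any of the 4 groups. Sec24a, at -0.138 points, ranged from -0.317 to 0.0304, the latter without Cre-positive sham replicate 2. The cause of these shifts was not tested. Whether the replicate numbers pair the samples was not settled. Of 18 same-numbered pairs, 3 had a correlation of deviations over 0.1, and 6 of 12 libraries correlated best with their own number. Between Cre-negative and Cre-positive MI libraries, same-numbered pairs were at 0.278 (replicate 1), -0.0372 (replicate 2) and 0.230 (replicate 3). With the replicate block there were 21 members higher and 5 lower in Cre-negative hearts, 17 and 5 in Cre-positive hearts and 0 in the genotype comparisons. At these depths members with few reads, such as Lman1l, carry large errors.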
